A study of Mus musculus with 4 samples.

Results

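The nuclear pore complex genes of B16F10 cells, a mouse melanoma line, were compared between cells in which Lmna was knocked down and their control. Members were the gene symbols beginning with Nup or Nupl and a digit, together with Ranbp2, Tpr, Sec13, Seh1l, Rae1, Aaas, Pom121, Ndc1 and Ahctf1. The matrix held 33 such symbols among 24421, and 26 of them were among the 9150 genes with enough counts to test. The study made 3′-end RNA libraries by MARS-seq from 2 shControl and 2 shLmna samples. Both groups came from the same C57BL/6-derived line, transduced with lentivirus and selected with puromycin at 2.5 µg/mL. The shControl cells carried the empty pLKO.5 vector and the shLmna cells carried a hairpin against exon 8 of Lmna. A single hairpin was used, so the loss of Lmna transcript and any other difference between the transduced lines cannot be told apart. Separate cultures are not stated for the libraries within a group, so p-values measure the spread between libraries, which may be technical.

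Nuclear pores are the channels through which RNA and protein pass between nucleus and cytoplasm, and each is built from many copies of a small set of proteins called nucleoporins. Stacked outer and inner rings form the scaffold, membrane proteins anchor it where the inner and outer nuclear membranes join, flexible nucleoporins rich in phenylalanine and glycine fill the channel, and filaments extend to the cytoplasm and, as a basket, into the nucleus. The basket and the nuclear outer ring lie beside the lamina, the meshwork of lamins that includes lamin A/C, the product of Lmna.

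Library totals ran from 2494880 to 3808843 counts, with 11562 to 12395 genes detected. Lmna itself had 2826 and 2684 counts in the shControl libraries and 331 and 480 in the shLmna libraries, a log2 fold change of -2.61 (SE 0.142, edgeR quasi-likelihood test with Benjamini-Hochberg adjustment, adjusted p = 7.93e-06). Melanocyte lineage markers summed to 67448 and 75140 counts in the shControl libraries and 53489 and 90297 in the others. These are raw sums, not scaled to library size, and single markers did not all move alike. Sox10 had 5083 and 6914 counts in shControl against 2131 and 3676 in shLmna, and Mlana had 9922 and 11928 against 10993 and 16833. Tyr, the gene for tyrosinase, had 1 to 7 counts per library. The 10 markers of leukocytes, macrophages, endothelium, epithelium, fibroblasts and T cells summed to 29 to 72 counts per library. In bulk RNA, fewer cells of a type and less RNA per cell cannot be told apart.

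Few nuclear pore complex genes passed the test between shLmna and shControl cells, with 2 libraries in each group. Of the 26 members tested, Ahctf1 was the only one to pass an adjusted p of 0.05 in edgeR, and it was higher in shLmna. Its 1 higher call stands beside 5.48% of all tested genes called higher, and the members' 0 lower calls stand beside 9.74% of all tested genes called lower. With the further limits of an absolute log2 fold change over 1 and a mean normalized count over 5, edgeR called 0 members and 7.64% of all tested genes. At an unadjusted edgeR p under 0.05 there were 5 members, 2 lower (Nupl2 and Nup160) and 3 higher (Ahctf1, Nup98 and Nup88), which is 19.2% of the members against 30.1% of all tested genes. DESeq2 passed 0 members after adjustment and 1 at an unadjusted p under 0.05.

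The log2 fold changes of the tested members ran from -1.47 to 0.57 with a median of 0.04, where the median over all tested genes was -0.00107. Their median absolute log2 fold change was 0.17, against 0.29 over all tested genes. Expression was above the other group's range in both shLmna libraries for 7 members and below it in both for 5, so the groups did not overlap in 12 of 26, where 60.1% of all tested genes did not overlap. Summed over all 33 members, the level was 2483 and 2340 CPM (counts per 1000000, taken over a TMM-adjusted library total) in shControl and 2538 and 2524 CPM in shLmna. These sums made up 0.229% to 0.257% of each library's counts. Since the counts are of transcript 3′ ends, with windows that differ between genes, levels are compared below between libraries and not between genes.

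**Figure D1:**
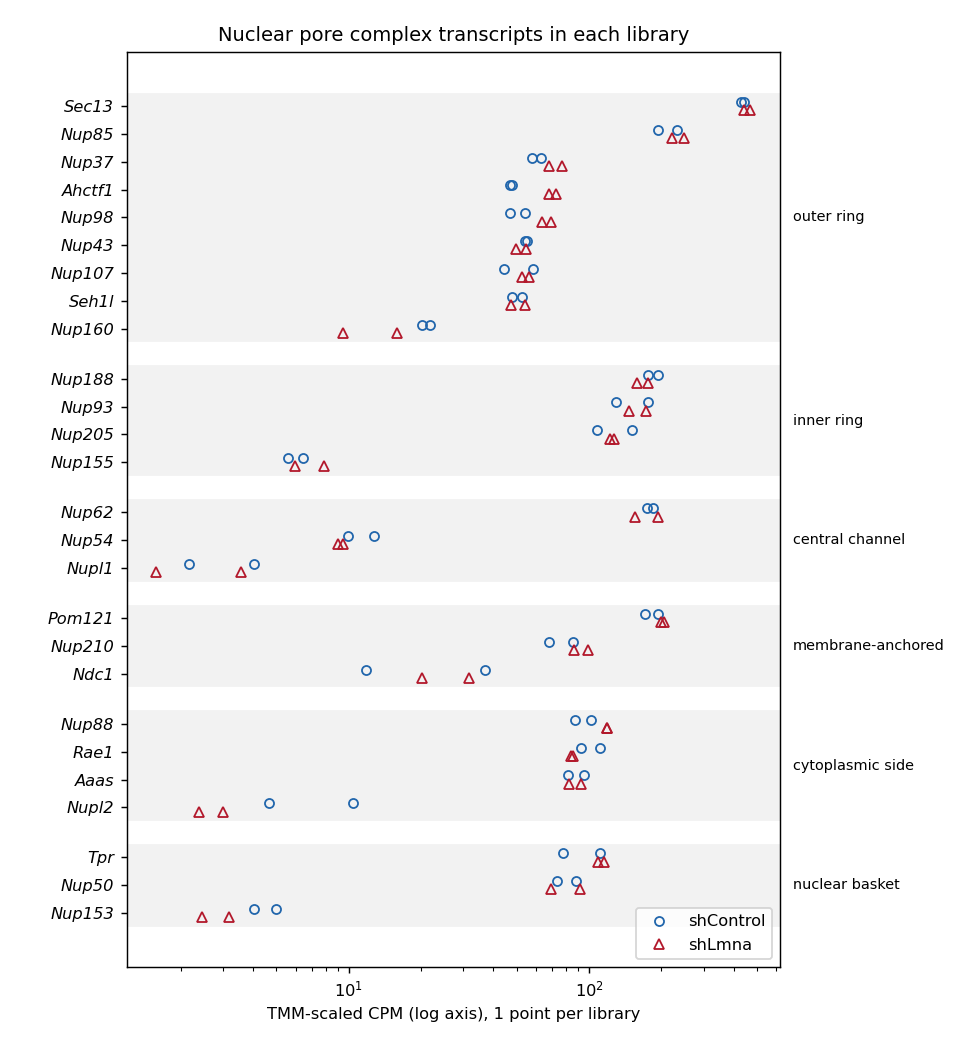
Level of each tested nuclear pore complex gene in CPM (log axis) in the 2 shControl and 2 shLmna libraries, 1 point per library, grouped by place in the pore. The points of most genes lie close together, and the widest spread within a group is that of Ndc1 in shControl, at 11.8 and 36.9 CPM.

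The outer ring, or Y complex, is the scaffold on both faces of the pore, and 9 of its 10 listed genes were tested. Ahctf1 encodes ELYS, the protein that binds chromatin at the end of mitosis and recruits the Y complex to it. It had 154 and 175 counts in the shControl libraries and 185 and 249 in the shLmna libraries, or 47.7, 46.9, 73.2 and 67.8 CPM. Both shLmna libraries were above both shControl libraries, with means of 47.3 ± 0.599 CPM in shControl and 70.5 ± 3.77 CPM in shLmna (SD, n = 2). The log2 fold change was 0.57 (SE 0.145), a 1.19- to 1.86-fold increase by its 95% interval, with an adjusted p of 0.0261 in edgeR. The call was lost in DESeq2 (adjusted p = 0.171), without the first shLmna library (log2 fold change 0.53, adjusted p = 0.182) and without the second (0.64, adjusted p = 0.117). By GENCODE gene ends, an exon of Kif28 lies on the same strand within the window at the end of Ahctf1. The RefSeq ends that the authors counted were not examined. The count matrix had no row under the symbol Kif28, so no counts of it can be set beside these. Of the 31-base stretches of the Ahctf1 end, 12.9% occur in another annotated gene, so the counts of Ahctf1 may be shared. The same limit holds for Nup54 (17.8% of stretches shared), Sec13 (12.6%) and Rae1 (11.2%).

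Nup160, a long-arm subunit of the Y complex, had 20.1 and 21.7 CPM in shControl and 9.49 and 15.8 CPM in shLmna. Both shLmna libraries were lower, but the 2 of them differed by more than the 2 shControl libraries, and the log2 fold change of -0.69 (95% interval -1.31 to -0.08) had an adjusted p of 0.122. It passed with the replicate number as a block (adjusted p = 0.0422) and by limma in the authors' batch-corrected values (adjusted p = 0.0153). With the block and a correction for GC content it did not pass (adjusted p = 0.0836). Leaving out the first shLmna library gave a log2 fold change of -0.40 and leaving out the second gave -1.12, neither past the test. Nup98, whose transcript encodes both the channel protein Nup98 and the Y complex subunit Nup96, had 53.9 and 46.9 CPM in shControl and 63.7 and 69.5 CPM in shLmna. Its groups did not overlap and its log2 fold change was 0.41 (95% interval 0.07 to 0.75, adjusted p = 0.104).

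The remaining subunits of the Y complex did not pass. Nup37, a small subunit bound to Nup160, had 57.6 and 62.9 CPM in shControl and 68.0 and 76.8 CPM in shLmna, with a log2 fold change of 0.27 (95% interval -0.06 to 0.59). Sec13, which also coats vesicles leaving the endoplasmic reticulum, had 441.7 and 427.6 CPM in shControl and 469.1 and 442.5 CPM in shLmna. Its log2 fold change was 0.07 with an interval from -0.19 to 0.33. A change of 1.5-fold lies outside that interval, as far as the counts are those of Sec13 alone (12.6% of stretches shared). Seh1l, which is shared with the GATOR complex that regulates mTORC1, had 48.0 and 52.7 CPM against 47.5 and 53.9 CPM, with overlapping groups and a log2 fold change of 0.01 (95% interval -0.34 to 0.37). Nup85, which binds Seh1l, had a log2 fold change of 0.14 (95% interval -0.16 to 0.45). Nup107, in the stem of the Y, had one of 0.08 (-0.30 to 0.47), and Nup43, a short-arm subunit, one of -0.07 (-0.41 to 0.27). Summed over the outer ring, the level was 1016 and 953 CPM in shControl and 1092 and 1052 CPM in shLmna.

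The inner ring surrounds the channel at the level of the membrane, and 4 of its 5 genes were tested. None of the 4 passed, and none had an unadjusted edgeR p under 0.05. Nup93, which ties the channel nucleoporins to the scaffold, had 176 and 129 CPM in shControl and 172 and 147 CPM in shLmna. The difference between its 2 shControl libraries was larger than the difference between the groups, and its log2 fold change was 0.06 (95% interval -0.30 to 0.43). The large scaffold proteins Nup205 and Nup188 are paralogs. Nup205 had 151 and 108 CPM against 123 and 127 CPM (log2 fold change -0.05, 95% interval -0.42 to 0.31). Nup188 had 193 and 176 CPM against 176 and 159 CPM (log2 fold change -0.14, 95% interval -0.42 to 0.13). Nup155, which links the ring to the membrane, was low at 5.58 to 7.91 CPM in the 4 libraries, and its interval from -0.61 to 0.98 is too wide to show a change below 1.5-fold. The groups overlapped for all 4 genes.

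The central channel is filled by Nup62, Nup54 and Nupl1 (Nup58), which assemble as 1 complex, and by Nup98. Nup62 had 184 and 174 CPM in shControl and 155 and 193 CPM in shLmna, so that the shControl values lay within the shLmna range, and its log2 fold change was -0.04 (95% interval -0.34 to 0.27). Nup54 had 12.7 and 9.91 CPM against 9.49 and 8.99 CPM (log2 fold change -0.29, 95% interval -0.93 to 0.35). Nupl1 was at 1.58 to 4.02 CPM with a log2 fold change of -0.22 and an interval from -1.48 to 1.05. At these counts neither a 1.5-fold rise nor a 1.5-fold fall of Nupl1 was detectable.

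Of the membrane-anchored nucleoporins, all 3 were tested and none passed. Pom121, which is needed for pore assembly in interphase, had 172 and 193 CPM in shControl and 206 and 200.0 CPM in shLmna (log2 fold change 0.15, 95% interval -0.12 to 0.43). Nup210, the glycoprotein gp210, had 68.1 and 85.9 CPM against 86.6 and 99.4 CPM (log2 fold change 0.27, 95% interval -0.08 to 0.62). The groups did not overlap for either, but the second shControl library of Nup210 lay within 1 CPM of the first shLmna library. Ndc1, which anchors the ring through Aaas and Nup35, varied most between libraries of a group, with 38 and 138 counts in the shControl libraries against 51 and 116, or 11.8, 36.9, 20.2 and 31.6 CPM. Its log2 fold change was 0.09 (SE 0.430, 95% interval -0.87 to 1.05), and the sign and the call depended on which shControl library was used. Without the first shControl library it was -0.48, and without the second it was 1.16 with an adjusted p of 0.0126.

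On the cytoplasmic side, 4 of 6 genes were tested and 0 passed. Nupl2 (Nup42), which binds the mRNA export factor Gle1, had 15 and 39 counts in the shControl libraries against 6 and 11 in the shLmna libraries, or 4.65, 10.4, 2.37 and 2.997 CPM. Both shLmna libraries were below both shControl libraries, and the log2 fold change was -1.47 (SE 0.496, 95% interval -2.58 to -0.37, adjusted p = 0.0775). Its size rested on the second shControl library. Without that library the log2 fold change was -0.76 with an adjusted p of 0.494, and without the first shControl library it was -1.92 with an adjusted p of 0.00342. It also passed with the replicate number as a block, at an adjusted p of 0.0223.

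Nup88, the partner of Nup214 on the cytoplasmic filaments, had 87.0 and 101 CPM in shControl and 119 and 119 CPM in shLmna. Its groups did not overlap and its log2 fold change was 0.33 (95% interval 0.04 to 0.63, adjusted p = 0.125). By GENCODE gene ends, the window of Nup88 contains an exon of Rabep1 on the opposite strand. Rabep1 had 131 and 134 counts in the shControl libraries against 196 and 255, and since the strand setting of the counting is not given in the sources used here, reads of the 2 genes cannot be told apart with certainty. The windows of Pom121 and Tpr likewise contain an opposite-strand exon, of Nsun5 and Prg4. Nsun5 had 290 and 373 counts in the shControl libraries against 236 and 338, and Prg4 had 0 to 3 counts per library. Rae1, an mRNA export factor that docks on Nup98, had 111 and 92.9 CPM against 83.8 and 85.8 CPM (log2 fold change -0.26, 95% interval -0.57 to 0.05). Aaas, the protein ALADIN, had 95.7 and 81.9 CPM against 92.9 and 82.8 CPM, overlapping groups and a log2 fold change of -0.02 (95% interval -0.34 to 0.30).

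The nuclear basket reaches from the nuclear ring toward chromatin and the lamina. Tpr, the coiled-coil protein of its filaments, had 111 and 77.6 CPM in shControl and 115 and 108 CPM in shLmna. The groups overlapped, with a log2 fold change of 0.25 (95% interval -0.13 to 0.63). Without the first shControl library its log2 fold change was 0.53 with an adjusted p of 0.0140, and without the second it was 0.01. Nup50, a cofactor of importins, had 73.4 and 88.1 CPM against 69.6 and 91.3 CPM, a log2 fold change of 0.00193 with an interval from -0.37 to 0.38. Nup153, which binds lamins and holds Tpr at the pore, was at 4.96 and 4.02 CPM in shControl and 3.16 and 2.45 CPM in shLmna. Both shLmna libraries were lower, but at 8 to 16 counts per library the interval of its log2 fold change of -0.69 ran from -1.70 to 0.33.

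**Figure D2:**
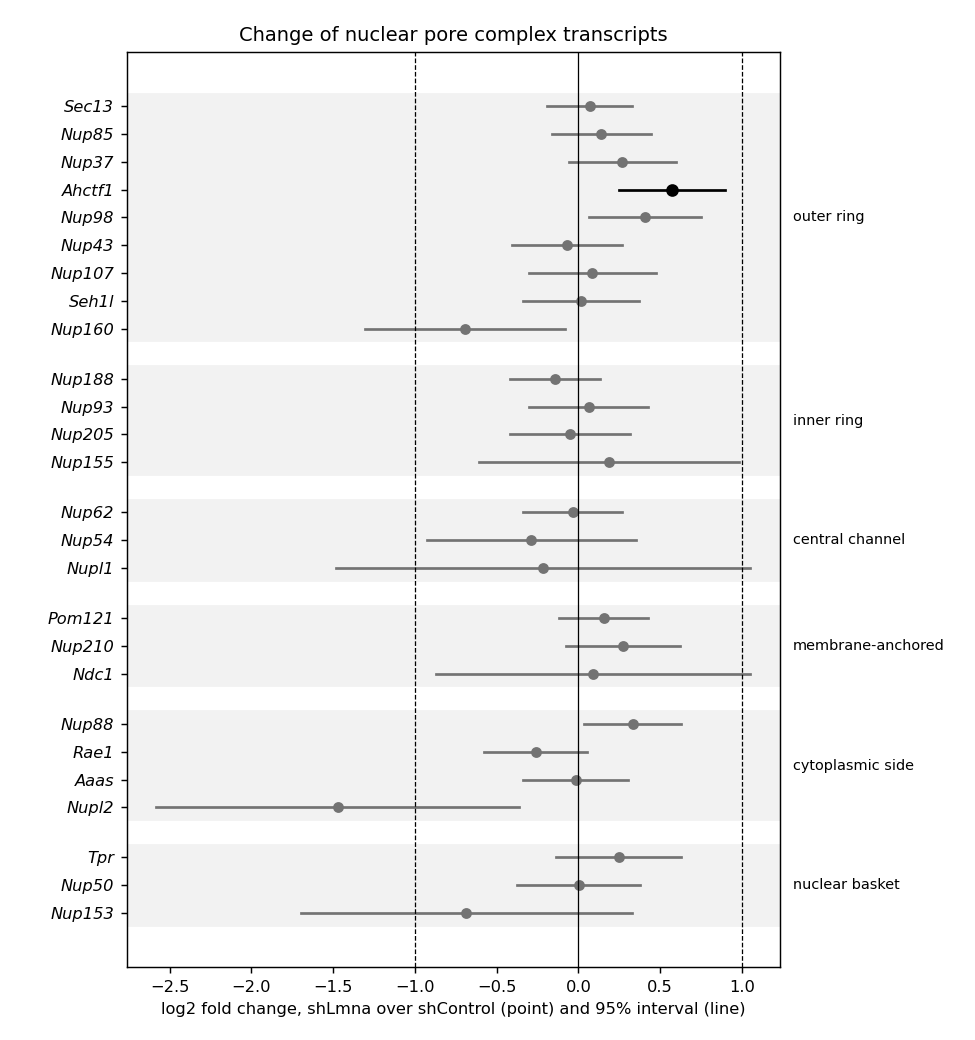
Log2 fold change of each tested member, shLmna over shControl, with its 95% interval from the edgeR fit, grouped by place in the pore (dashed lines at a log2 fold change of -1 and 1). Ahctf1, in black, has the only adjusted p under 0.05, and the intervals of 21 of 26 members lie between the dashed lines.

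The remaining 7 members had too few counts to test. Nup133, a stem subunit of the Y complex, had 9 and 8 counts in the shControl libraries against 6 and 11 in the shLmna libraries. Nup35, an inner ring protein, had 5, 6, 5 and 10 counts in the same order, and 84.9% of the 31-base stretches of its end occur in another gene. Ranbp2, the SUMO ligase of the cytoplasmic filaments, had 3 and 21 counts in the shControl libraries against 0 and 4. With no filter on low counts its log2 fold change was -2.34 (95% interval -3.91 to -0.78, adjusted p = 0.0265), which rests on the 21 counts of the second shControl library, since the first, at 3, lay within the shLmna range. Nup214, the filament nucleoporin that pairs with Nup88, had 1 count in each shControl library and 0 in each shLmna library. Nup210l, a testis paralog of Nup210, had 3, 0, 1 and 0 counts. The symbols Nup62cl and Nup62-il4i1 had 0 counts in every library. That allows up to 0.788 to 1.20 CPM, here over library totals without TMM (3 counts per library, counting error only).

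How large a change the data could hide was read from the 95% intervals. The interval lay within 2-fold in either direction for 21 of 26 members (80.8%), against 66.0% of all tested genes, and within 1.5-fold for 13 members (50% against 29.3%). Intervals were narrower for the more abundant members. Among members with a mean above 30 CPM, a split chosen after the values were seen, all 19 lay within 2-fold, where 88.7% of all genes above that level did, and 13 of the 19 lay within 1.5-fold (68.4% against 51.3%). Of the 7 members at or below 30 CPM, the intervals of 2 lay within 2-fold and of 0 within 1.5-fold. The 5 whose intervals passed 2-fold were Nupl2, Nup160, Nup153, Nupl1 and Ndc1.

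Within-group log2 ratios, second library over first, were set beside the log2 fold change between groups. The shControl ratio exceeded it in size in 15 of 26 members and the shLmna ratio in 14. The larger of the 2 ratios did so in 19 of 26 (73.1%), against 52.1% of all tested genes. A ratio of single libraries varies more than a difference of group means, and the larger was taken, so this does not show the members to be noisier. Their median absolute ratios were 0.24 in shControl and 0.17 in shLmna, against 0.21 and 0.18 over all tested genes. The shControl and shLmna ratios had the same sign in 19 of 26 members (all tested genes, 51.8%), and across the 26 members their Pearson correlation was 0.64, falling to 0.57 without Ndc1, where over all tested genes it was 0.01. These are descriptions across genes measured in the same 4 libraries, and genes are not independent replicates.

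**Figure D3:**
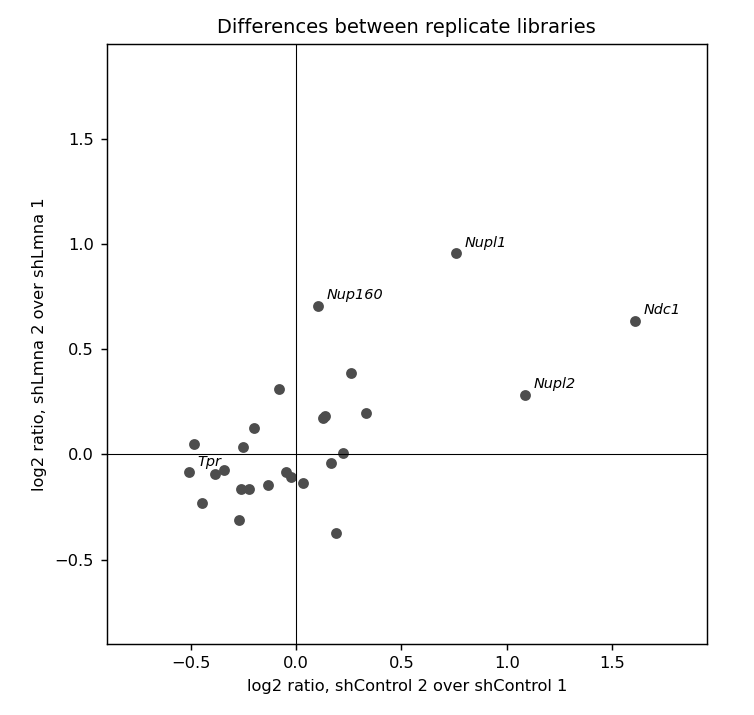
Log2 ratio of the second over the first library in shControl (horizontal axis) and in shLmna (vertical axis) for each tested member. Of 26 members, 19 have the same sign in both groups, and Ndc1 lies farthest out in shControl, at a log2 ratio of 1.61.

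Across all genes, the share called in either direction at an adjusted p under 0.05, with no limit on fold change, varied with base composition. Of 1142 tested genes whose last 1000 transcript bases were at most 38% G and C, 32.2% were called lower in shLmna in edgeR and 8.14% higher. The share called lower was 8.55% of 1368 genes from 38% to 42%, 5.62% of 1549 from 42% to 46%, 4.35% of 1517 from 46% to 50% and 6.96% of 3217 above 50%. The share called higher in these ranges was 8.85%, 5.81%, 4.61% and 3.29%, in the same order. Genes of the lowest range were also less abundant, with a median of 14.8 CPM against 53.0 CPM above 50%. Whether the shares go with GC content or with abundance was not tested. The tested members had a median of 44.6% (33.2% to 55.9%), against 46.9% over all tested genes. The 3 members in the lowest range were Nup153, Nup155 and Nup160, and the log2 fold changes of Nup153 and Nup160 were both -0.69 while that of Nup155 was 0.19. Ranbp2, below the filter on counts, was at 34.1%. Ahctf1, at 40.4%, lay in the next range, where 8.85% of all genes were called higher. With a GC trend removed from the fit, Ahctf1 was still higher. The counts of members with an adjusted p under 0.05 were the same, 0 lower and 1 higher, and 0 met the further limits on fold change and abundance. Under the same correction the log2 fold change of Nup160 was -0.63 and that of Nup153 was -0.48.

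**Figure D4:**
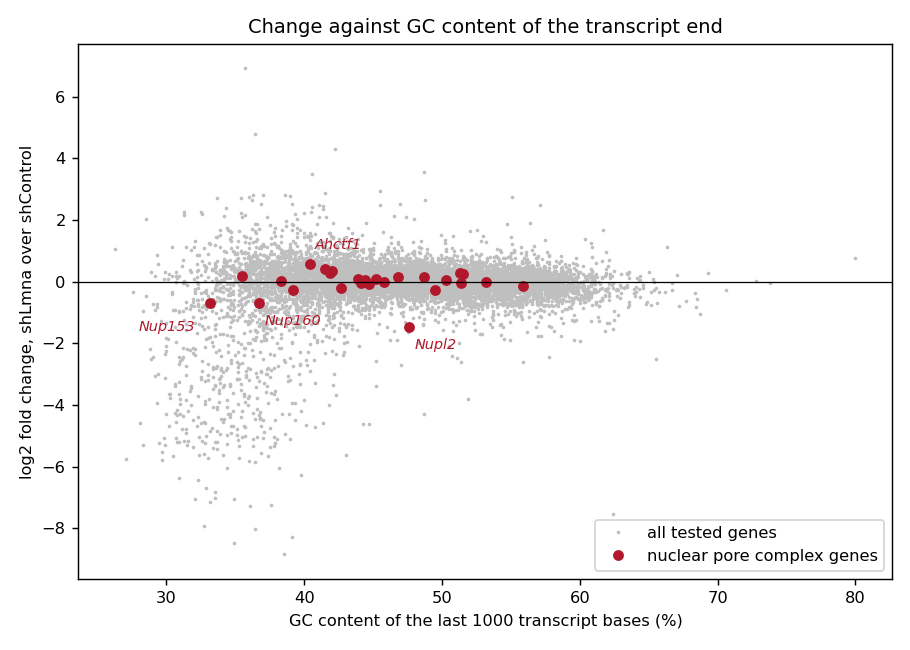
Log2 fold change, shLmna over shControl, against the percent of G and C in the last 1000 transcript bases, for all tested genes (grey) and the tested members (red). Nup153 and Nup160, at 33.2% and 36.7%, lie at -0.69, in the range where 32.2% of all genes were lower at adjusted p under 0.05.

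A list of 35 symbols of other genes that act at or with the pore was counted in the same fit. It included transport receptors, the Ran cycle, mRNA export factors, the TREX-2 complex and checkpoint proteins held at the pore. Of its 28 tested genes, 2 fell and 3 rose at an adjusted p of 0.05 in edgeR, with a median log2 fold change of 0.03. These are 7.14% lower and 10.7% higher, beside 9.74% and 5.48% of all tested genes. Mad2l1, a spindle checkpoint protein that binds at the pore in interphase, had 72.5 and 98.3 CPM in shControl and 46.3 and 39.0 CPM in shLmna. It fell by 1.01 on the log2 scale (adjusted p = 0.00576) and was the only partner past the further limits on fold change and abundance, by a narrow margin. Its log2 fold change was inside the limit of 1 by upper quartile scaling (-0.98), by library totals (-0.98), with the stricter filter (-0.9998), with the GC correction (-0.97, and -0.97 with the block added), with recovered reads (-0.997), and without the second shControl library (-0.78) or the second shLmna library (-0.87). In the batch-corrected values it was -0.37, but Lmna was at -1.54 there against -2.61 in edgeR, so the limit of 1 is not alike on that scale. Kpnb1, the import receptor importin β1, had 80.2 and 82.2 CPM against 60.5 and 55.3 CPM (log2 fold change -0.49, adjusted p = 0.0420).

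Among the partners that rose were the centrins Cetn3 and Cetn2, of which Cetn2 is a subunit of TREX-2. Cetn3 had 107 and 103 CPM in shControl and 167 and 164 CPM in shLmna (log2 fold change 0.65, adjusted p = 0.00637). Cetn2 had 26.6 and 14.5 CPM against 37.2 and 40.3 CPM (log2 fold change 0.93, adjusted p = 0.0463). The groups did not overlap for these 4 named partners, which were among 18 of the 28 tested with groups apart, where 60.1% of all tested genes did not overlap. Each of the 4 lost its call without at least 1 library, Kpnb1 and Cetn2 also lost it in DESeq2, Cetn2 with the GC correction, and Kpnb1 by upper quartile scaling (adjusted p = 0.0541) and library totals (adjusted p = 0.0542). The export receptor Xpo1 had too few counts to test, 2 and 10 in the shControl libraries against 1 in each shLmna library.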

How the data were processed

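MARS-seq libraries of 2 shControl and 2 shLmna samples were analysed from the deposited raw count matrix. Per the paper's methods and the submitters' processing notes, the authors trimmed reads with cutadapt, mapped them to mm10 with STAR 2.4.2a and counted RefSeq 3′ ends (the last 1000 bases and 100 bases downstream) with a modified HTSeq in the UTAP pipeline, counting molecular identifiers once duplicates had been marked. Which step of this the deposited raw matrix holds is not given in the sources used here. The authors also deposited DESeq2-normalized values (signal) and log2 values after batch correction with ComBat, whose batches are not named. Dividing the normalized values by their step gave whole reads for 100% of values in each library (tolerance 0.1), with the raw matrix 1.08 to 1.09 times higher. Columns of the authors' own comparison (p-values, adjusted p-values, pass and direction) were not used.

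Counts were tested with edgeR 4.0.16 in R 4.3.3 (TMM, filterByExpr, quasi-likelihood F test, two-sided, group as the one term, Benjamini-Hochberg over 9150 genes). SEs came from the F statistic and 95% intervals from the quasi-likelihood t quantile. The study's 3 limits (adjusted p under 0.05, absolute log2 fold change over 1, mean normalized count over 5) were used where the text names them. Elsewhere a call, or a gene called lower or higher, means an adjusted p under 0.05 alone. CPM used TMM-adjusted totals, except where stated. Alternatives were other scalings, no filter, a filter at 10 counts, DESeq2 1.42.0, a replicate block, a GC correction, recovered reads, limma 3.58.1 on the batch-corrected values, and leaving out each library. GC content and shared 31-base stretches came from GENCODE M21 (GRCm38), where 32 of 33 members matched by symbol. The fit was tested on simulated data. Within groups, counts differed by more than sampling noise (chi-square per degree of freedom 6.96 in shControl and 3.91 in shLmna). Every member is accounted for; those with adjusted p under 0.05 are given in full, the others with their log2 fold change or counts, and partners by name where they passed (1 is not reported here), with Xpo1 added after its values were seen. The members and lists were chosen with earlier results of these data known.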

Additional observations from a re-analysis of the deposited data

How the results depend on the processing

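Direction and call of Lmna were the same in every alternative run. The count of members lower in shLmna, 0 in edgeR, was 2 with no filter (Nupl2 and Ranbp2), 2 with the replicate block (Nup160 and Nupl2), 1 with the block and GC correction, 3 in the batch-corrected values, and 0 to 2 on leaving out 1 library. The count higher, 1, was 0 in DESeq2, 5 in the batch-corrected values (Ahctf1, Nup98, Nup88, Nup37 and Nup210), and 0 to 3 without 1 library, being 0 without either shLmna library. The count called by 3 limits, 0, was 2 with no filter, 1 with the block, 1 with the block and GC correction, and 0 to 2 without 1 library. Partners lower, 2, were 1 by upper quartile scaling, by library totals and in DESeq2, 5 with no filter and in the batch-corrected values, and 0 to 5 without 1 library. Partners higher, 3, were 1 in DESeq2, 5 with the block, 6 in the batch-corrected values and 0 to 4 without 1 library. Over all genes, 891 lower became 592 in DESeq2, 1992 in the batch-corrected values and 414 to 1329 without 1 library. The 501 higher became 218 in DESeq2, 852 with the block, 808 with the block and GC correction, 1784 in the batch-corrected values and 89 to 775 without 1 library. The cause of these shifts was not tested. The members' median log2 fold change, 0.04, was 0.068 by upper quartile, 0.0699 by library totals, 0.0743 with the stricter filter, and 0.00789 to 0.0841 without 1 library. The replicate numbers were not shown to pair the libraries: over all genes the replicate differences of the groups correlated at 0.01.

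In the alternatives that kept all 4 libraries, signs that turned belonged to values near 0. They were Nup93 (-0.00483 with GC correction), Aaas (0.013 by upper quartile, 0.015 by library totals, 0.00775 with GC correction, 0.012 with GC correction and block) and Nup50 (-0.00806 with block, -0.064 with GC correction, -0.073 with both). Without 1 library, the ranges that crossed 0 were Aaas -0.13 to 0.10, Ndc1 -0.48 to 1.16, Nup107 -0.11 to 0.29, Nup205 -0.28 to 0.21, Nup43 -0.13 to 0.01, Nup50 -0.20 to 0.18, Nup62 -0.19 to 0.11, Nup93 -0.15 to 0.30, Nupl1 -0.95 to 0.31 and Seh1l -0.07 to 0.10. Of 26 tested members, 19 passed in none of the 11 alternatives that kept all 4 libraries. With 2 libraries per group, 7 members below the filter and 7 at or below 30 CPM, the depth limits what can be said of Ranbp2, Nup153, Nupl1 and Nupl2.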
